A study of Homo sapiens with 6 samples.

Results

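The ISG15 conjugation system was followed at the mRNA level in MDA-MB-231 cells, an established human line of breast cancer that lacks the hormone receptors and HER2 amplification. It comprised 7 genes of the 63241 counted: the modifier ISG15, its E1 enzyme UBA7, its E2 enzyme UBE2L6, the E3 ligases HERC5, HERC6 and ARIH1, and the protease USP18. All 7 were found by symbol in every library. Cells described as WT received 5 μM NCD (nitidine chloride, a natural alkaloid) or 0.1% DMSO as the vehicle, for 24 hours, and RNA of 3 libraries per group was sequenced. Nothing in the labels says whether the libraries of a group came from separate cultures, so the spread between them may be technical. In RNA from a whole culture, a change in every cell and a change in the share of responding cells cannot be told apart.

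ISG15 is a ubiquitin-like protein made of tandem ubiquitin folds, and interferon is its best known inducer. It is joined to lysines of other proteins in the same order of steps as ubiquitin: UBA7 activates it, UBE2L6 carries it, and a ligase, mainly HERC5 in human cells, transfers it. USP18 removes ISG15 from its targets and, apart from this, binds the interferon receptor subunit IFNAR2 and restrains signalling from it. ISG15, UBE2L6, HERC5, HERC6, UBA7 and USP18 are classical interferon-stimulated genes, whereas ARIH1 is a broadly expressed ligase of the RING-between-RING (RBR) class that works mostly with ubiquitin.

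Interferon reaches many of its genes through the interferon-stimulated response element (ISRE), bound by the ISGF3 complex and by IRF proteins. The ISRE was searched on both strands as GAAA, any 2 bases and GAAA again, in RefSeq promoter windows (GRCh38.p14), each from 250 bases before to 50 bases after a start site. Windows were given for 5 of the 7 genes, and UBA7 and USP18 had none. Stretches before the RefSeq start sites of ISG15, HERC5 and HERC6 are shown. The neighbouring ligase genes HERC5 and HERC6, both higher with NCD below, differ in these letters within them. Each stretch covers bases -140 to -41 from the start site on the plus strand, and capitals mark the ISRE letters.
ISG15, chr1:1013357-1013456: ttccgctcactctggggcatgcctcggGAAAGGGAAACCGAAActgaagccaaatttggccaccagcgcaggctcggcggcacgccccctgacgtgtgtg
HERC5, chr4:88456979-88457078: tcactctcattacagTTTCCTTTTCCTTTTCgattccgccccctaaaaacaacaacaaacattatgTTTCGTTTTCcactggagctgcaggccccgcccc
HERC6, chr4:88378712-88378811: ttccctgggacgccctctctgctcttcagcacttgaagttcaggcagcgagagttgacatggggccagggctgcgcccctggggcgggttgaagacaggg

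The ISG15 window held 2 overlapping matches, starting 113 and 107 bases before the start site. The HERC5 window held 3 matches on the other strand, starting at -125, -119 and -74, of which the first and second overlap. At least 1 match was present in 3.57% of all 35116 windows, at least 2 in 0.259% and at least 3 in 0.037%. No match lay in the window of HERC6, in either window of UBE2L6 or in that of ARIH1, which says only that these letters are missing from those windows. The GAS element that binds STAT dimers, searched as TTCNNNGAA, lay in none of these windows and in 7.66% of all windows. By the GENCODE annotation used for gene positions below, HERC6 starts at 88378739, before its RefSeq start site at 88378852. Its printed stretch from 88378739 onward therefore lies inside the annotated gene. The windows of UBE2L6 lie wholly inside the annotated gene, whose start on the minus strand is at 57568284. No UBE2L6 sequence before that start was searched.

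**Figure D1:**
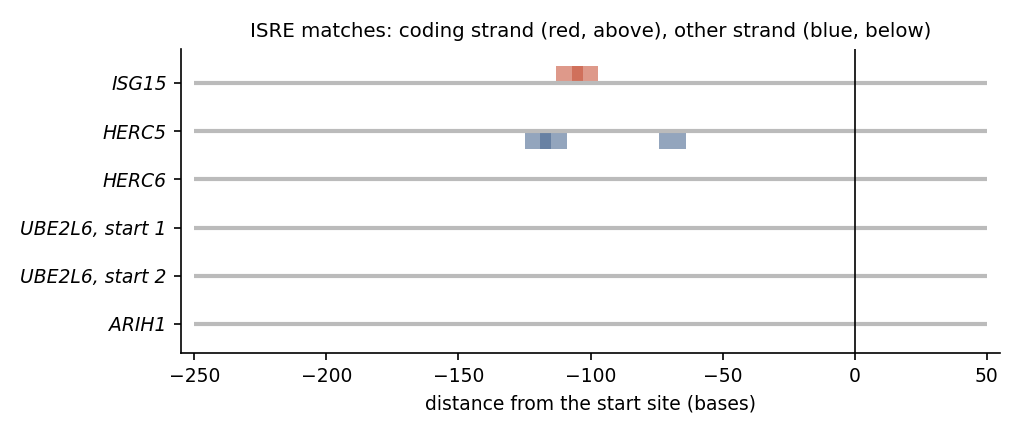
ISRE matches along RefSeq promoter windows, with the distance from the start site in bases on the x axis and 1 line per window (UBE2L6 has 2 start sites). Blocks are matches on the coding strand (red, above the line) or the other strand (blue, below), present in ISG15 at -113 and -107 and in HERC5 at -125, -119 and -74, and in none of the other windows.

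The libraries held 18223594 to 19410833 counts with DMSO and 18232169 to 21629653 with NCD. The deposited values are RSEM expected counts, scaled here by TMM to CPM. Of 8 genes known to be high in this line, all were detected, with the intermediate filament gene VIM at 3056 ± 100 CPM (SD, n = 3) with DMSO, and the receptor genes ESR1 and PGR averaged at most 0.244 CPM in each group. The 7 luminal and receptor genes checked summed to 44.6 to 47.5 CPM with DMSO and 71.4 to 75.9 with NCD, mostly from ERBB2 (37.2 and 61 CPM). All 8 genes high in this line lay lower with NCD and 4 of them passed the threshold given next. Of 10 markers of leukocytes, endothelium and fibroblasts, 4 passed the count filter, COL1A2 had 0 counts in every library, and PTPRC and CD3E averaged at most 0.0189 CPM. This list summed to 84.8 to 94.6 CPM with DMSO and 102 to 109 with NCD, most of it from CD68, and COL1A1 rose from 2.86 ± 0.636 to 13.6 ± 1.06 CPM (SD, n = 3). Whether these shifts have a part in the values below was not tested.

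NCD was compared with DMSO over 15295 genes by edgeR's quasi-likelihood test, and a call needed an absolute log2 fold change over 1 together with an adjusted p (Benjamini-Hochberg) under 0.05. The 7 genes were selected on values of this same contrast, so their differences are given as a description without a test. By this rule 6 of the 7 were called, 5 higher with NCD and 1 lower, where 31.0% of all tested genes were called, 13.5% higher and 17.5% lower. In 6 of 7 the groups did not overlap, against 72.6% of all tested genes. The NCD libraries all lay above the DMSO libraries for 5 members and below for 1, against 37.2% and 35.3% of all tested genes. The median log2 fold change of the 7 was 1.22, and that of all tested genes 0.04. Scaling by library totals moved the calls over all genes from 2067 higher and 2669 lower to 2793 higher and 2181 lower, and the median of all genes to 0.23.

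The modifier itself showed the greatest difference of the 7. ISG15 (ENSG00000187608, chromosome 1, 1001138 to 1014540, plus strand, GENCODE 29 on GRCh38) was counted 260, 217 and 265 times in the 3 DMSO libraries, and 2993, 2634 and 1989 times after NCD. In CPM these were 15.7, 12.3 and 14.5 with DMSO, and 131, 136 and 92.7 with NCD. Every NCD library lay far above every DMSO library, with a gap of 77.1 CPM between the closest libraries, and NCD replicate 3 was the lowest of its group. The means were 14.2 ± 1.73 and 120 ± 23.7 CPM (SD, n = 3), a log2 fold change of 3.08 (standard error 0.16, 95% interval 2.72 to 3.45), or 8.47-fold. This placed ISG15 as the gene of rank 122 from the top among all 15295 tested. The start at 1001138 belongs to a long alternative transcript, whereas the RefSeq start used for the promoter window is at 1013497. Of 2 genes annotated on the opposite strand of its span, 1 had any count, at most 2 in a library.

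**Figure D2:**
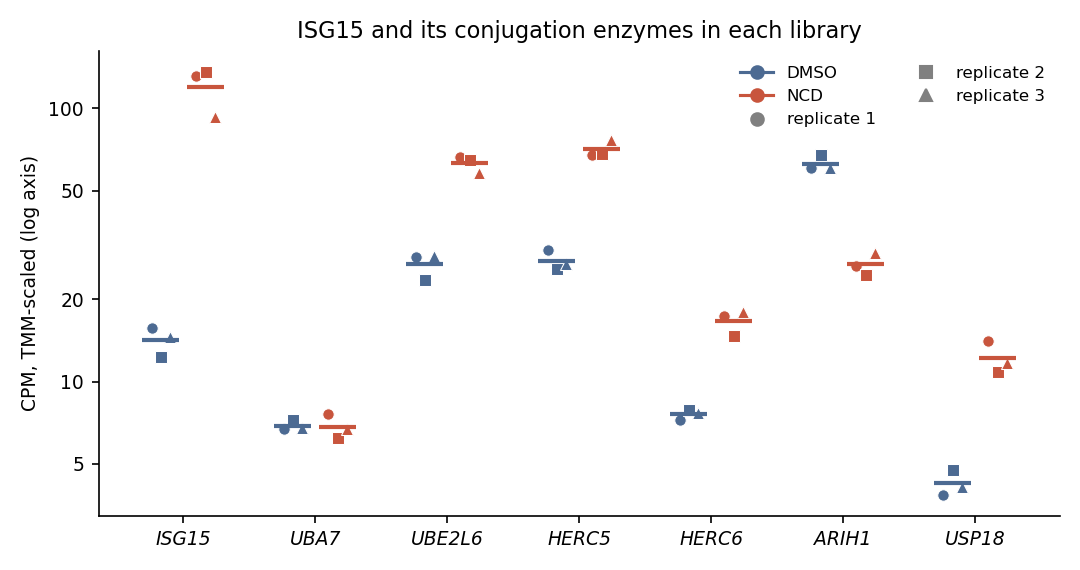
Expression of the 7 genes in each of the 6 libraries, as TMM-scaled CPM on a log axis, with DMSO in blue, NCD in red, marker shapes for the replicates and a bar at the group mean. ISG15, UBE2L6, HERC5, HERC6 and USP18 lie higher in every NCD library, ARIH1 lies lower in every one, and the groups overlap for UBA7.

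The first enzyme of the chain did not follow the modifier. UBA7 (ENSG00000182179, chromosome 3, 49805207 to 49813946, minus strand), which forms the thioester with ISG15, had 6.69, 7.24 and 6.74 CPM with DMSO and 7.6, 6.21 and 6.71 with NCD. The groups overlapped, with NCD libraries both above and below all DMSO libraries. The log2 fold change was -0.01 (standard error 0.13), and its 95% interval of -0.29 to 0.28 corresponds to a ratio of 0.815 to 1.21. UBA7 had 111 to 174 counts per library.
The E2 enzyme was higher with NCD. UBE2L6 (ENSG00000156587, chromosome 11, 57551656 to 57568284, minus strand), which accepts ISG15 from UBA7, had 28.5, 23.5 and 28.8 CPM with DMSO and 66.3, 64.9 and 57.8 with NCD. These rest on 416 to 526 counts with DMSO and 1239 to 1518 with NCD, and the groups were 28.9 CPM apart at their closest. The log2 fold change was 1.22 (standard error 0.10, 95% interval 1.00 to 1.45), or 2.34-fold.

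The HERC ligases were both higher, HERC5 by 2.56-fold and HERC6 by 2.2-fold. HERC5 (ENSG00000138646, chromosome 4, 88457117 to 88506163, plus strand), which acts on newly made proteins at the ribosome, had 30.4, 25.8 and 26.9 CPM with DMSO and 67.7, 68.3 and 76.3 with NCD. HERC5 had a log2 fold change of 1.35 (standard error 0.09, 95% interval 1.16 to 1.55). HERC6 (ENSG00000138642, chromosome 4, 88378739 to 88443111, plus strand), the closest relative of HERC5 and the main ISG15 ligase of mice, had 7.23, 7.86 and 7.67 CPM with DMSO and 17.4, 14.7 and 18 with NCD. For HERC6 the log2 fold change was 1.14 (standard error 0.11, 95% interval 0.88 to 1.40), an interval that reaches below the fold threshold. HERC5 had 456 to 504 counts with DMSO and 1320 to 1636 with NCD, and HERC6 had 120 to 140 and 284 to 399. All NCD libraries lay above all DMSO libraries for both genes, NCD replicate 3 was the highest for both, and HERC5 stood at more CPM than HERC6 in each library.

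ARIH1, the third ligase, went the other way. ARIH1 (ENSG00000166233, chromosome 15, 72474326 to 72602985, plus strand) had 60.4, 67.4 and 60.6 CPM with DMSO and 26.5, 24.6 and 29.6 with NCD. Every NCD library was below every DMSO library, with 30.9 CPM between the nearest. The log2 fold change was -1.22 (standard error 0.09, 95% interval -1.43 to -1.02), or 2.34-fold lower. Its counts were fractional in all 6 libraries, where RSEM had divided some reads with other genes, whereas the other members had whole counts in every library. It is the longest of the 7 genes at 128.7 kb, and the 1469 tested genes of 89.7 to 153.1 kb had a median log2 fold change of -0.93, with 46% called lower. HERC6, at 64.4 kb, lay in a span class of 58.9 to 89.7 kb with a median of -0.35, and HERC5, at 49 kb, in one of 41.2 to 58.9 kb with a median of -0.03. The other members span 8.7 to 27.5 kb, where the medians of the span classes ran from 0.32 to 0.43. The span of ISG15 among these, 13.4 kb, includes its long alternative transcript. In the span classes of these shorter members 18% to 21.9% of genes were called higher, beside 13.5% of all tested genes. In the classes of HERC5 and HERC6 the shares were 8.85% and 5.92%. The part of gene span in these differences was not tested.

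The protease was higher together with the modifier. USP18 (ENSG00000184979, chromosome 22, 18149899 to 18177397, plus strand) was counted 64, 84 and 75 times with DMSO and 322, 208 and 250 times with NCD, or 3.86, 4.75 and 4.11 against 14.1, 10.8 and 11.7 CPM. The NCD libraries were all above the DMSO libraries, by 6.01 CPM at the closest. The log2 fold change was 1.52 (standard error 0.15, 95% interval 1.18 to 1.85), or 2.87-fold. USP41, a near copy of USP18 on the same chromosome, was at 0 counts in all 6 libraries, so summing the pair left the value at 1.52.
Among the libraries of a group no single one stood out for all 7 genes. NCD replicate 1 was the highest NCD library for 3 genes, NCD replicate 3 for 3 and NCD replicate 2 for 1. The coefficient of variation between replicates ran from 4.28% for HERC6 to 12.2% for ISG15 with DMSO, and from 6.78% for HERC5 to 19.8% for ISG15 with NCD.

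To compare the genes with each other, counts were divided by the merged exon length and scaled to the same total in each library (level per length). With DMSO the order ran from ISG15 (44.9 ± 3.32, SD, n = 3) through UBE2L6 (36.7 ± 2.66) and HERC5 (17.4 ± 0.749) to ARIH1 (8.25 ± 0.926), USP18 (5.99 ± 0.958), UBA7 (4.55 ± 0.428) and HERC6 (3.93 ± 0.36). The ranges of neighbours in this order did not overlap, except for UBA7 and HERC6. With NCD the order of levels became ISG15 (431 ± 70.3), UBE2L6 (97.2 ± 3.45), HERC5 (50.5 ± 5.51), USP18 (19.4 ± 2.59), HERC6 (9.82 ± 1.34), UBA7 (5.11 ± 0.525) and ARIH1 (4 ± 0.529), and the ranges of UBA7 and ARIH1 overlapped. USP18 and HERC6 thus went from below ARIH1 to above it, with ranges that did not overlap in either group. The means of HERC6 and UBA7 also changed places, as did those of UBA7 and ARIH1, but the first pair overlapped with DMSO and the second with NCD. With the length of the principal transcript in place of the merged exons, a choice made after seeing the data, ISG15 and UBE2L6 had overlapping ranges with DMSO (54.5 to 63 and 54.9 to 63.4), and those of UBA7, HERC6 and USP18 also overlapped. By that length the NCD ranges of UBA7 (6.24 to 7.65) and ARIH1 (3.77 to 4.85) did not overlap. Those of HERC6 (12.9 to 17) and USP18 (16.8 to 21.9) did.

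Set against its enzymes on this per-length scale, ISG15 mRNA gained on each one. The ratio of the level of ISG15 to that of UBA7 was 8.19 to 11.3 in the DMSO libraries and 66.7 to 106 in the NCD libraries. To UBE2L6 the ratio was 1.18 to 1.28 with DMSO and 3.75 to 4.9 with NCD, and to HERC5 it was 2.41 to 2.74 and 6.16 to 10.1. The ratio to the protease USP18 went from between 5.84 and 9.19 to between 18 and 28.7. Against the HERC6 ligase ISG15 stood at 9.61 to 13.3 times the level with DMSO and 31.6 to 57.1 times with NCD, and against ARIH1 at 4.43 to 6.3 times and 76.2 to 134 times. The ranges of the groups did not overlap for any of the 6 enzymes.

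**Figure D3:**
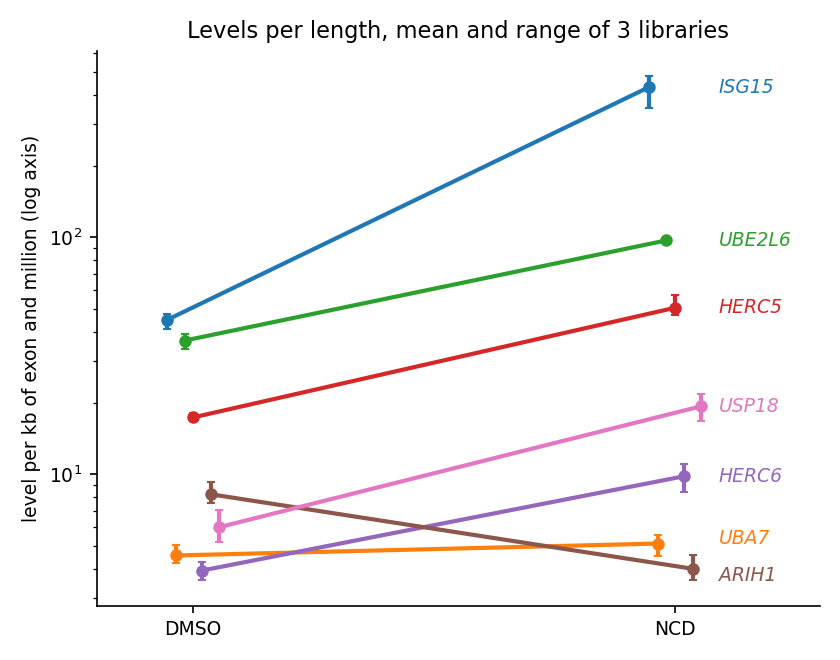
Level of each gene per kb of merged exon, scaled to the same total in each library, on a log axis, in the DMSO and NCD groups. Points are means and bars the range of 3 libraries, and the lines of USP18, HERC6 and UBA7 cross that of ARIH1, with UBA7 and ARIH1 overlapping in the NCD group.

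The nearest relatives of the members were examined next, to see whether the families moved as wholes. The remaining HERC genes, HERC1, HERC2, HERC3 and HERC4, all fell, with log2 fold changes of -2.79, -2.32, -2.29 and -1.54 (edgeR adjusted p between 7.39e-08 and 1.34e-06). These are large HERC ubiquitin ligases and their smaller relatives with no known part in ISG15 transfer. Their genes span 116.1 to 225.3 kb, longer than HERC5 and HERC6, and HERC2 has several pseudogene copies that can share its reads. HERC5 and HERC6 therefore had the opposite sign to all 4 other genes of their family.
UBE2L3, the ubiquitin E2 most like UBE2L6, went from 219 ± 12.6 to 121 ± 8.67 CPM (SD, n = 3), a log2 fold change of -0.85 (standard error 0.07), short of the fold threshold. Of 36 E2 genes of other modifiers, 10 were called (27.8%, beside 31.0% of all tested genes), 9 lower and 1 higher. Their median was -0.25, and scaling by library totals gave 5 lower and 3 higher. The lower ones included the UBE2E genes UBE2E2 (-3.48, span 388.8 kb) and UBE2E3 (-1.52, 109.3 kb), and the higher one was UBE2Q1 (1.11, 10.5 kb).
Among 9 E1 genes of other modifiers, 1 was called (11.1%, beside 31.0% of all tested genes), the autophagy E1 ATG7. It spans 285.4 kb and fell by 3.79 on the log2 scale. The ubiquitin E1 genes UBA1 and UBA6 had log2 fold changes of 0.29 (standard error 0.06) and -0.98 (standard error 0.17), both short of the fold threshold.
ARIH2, the RBR ligase most like ARIH1, had a log2 fold change of -0.77 (standard error 0.07), also short of the threshold. Of the 11 RBR genes tested beside ARIH1, 4 were called (36.4%, beside 31.0% of all tested genes), and the median of all 11 was -0.42. ANKIB1 (-2.00, span 155.2 kb), RNF216 (-1.69, 161.7 kb) and RNF217 (-1.19, 130.1 kb) were lower and RNF19B (1.10, 28.2 kb) was higher. With library totals 2 were called lower and 2 higher. All tested genes of 89.7 to 153.1 kb had a median of -0.93, with 46% called lower. That class holds RNF217, whereas ANKIB1 and RNF216 are longer and lie outside it. The part of gene span in these family differences was not tested.

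**Figure D4:**
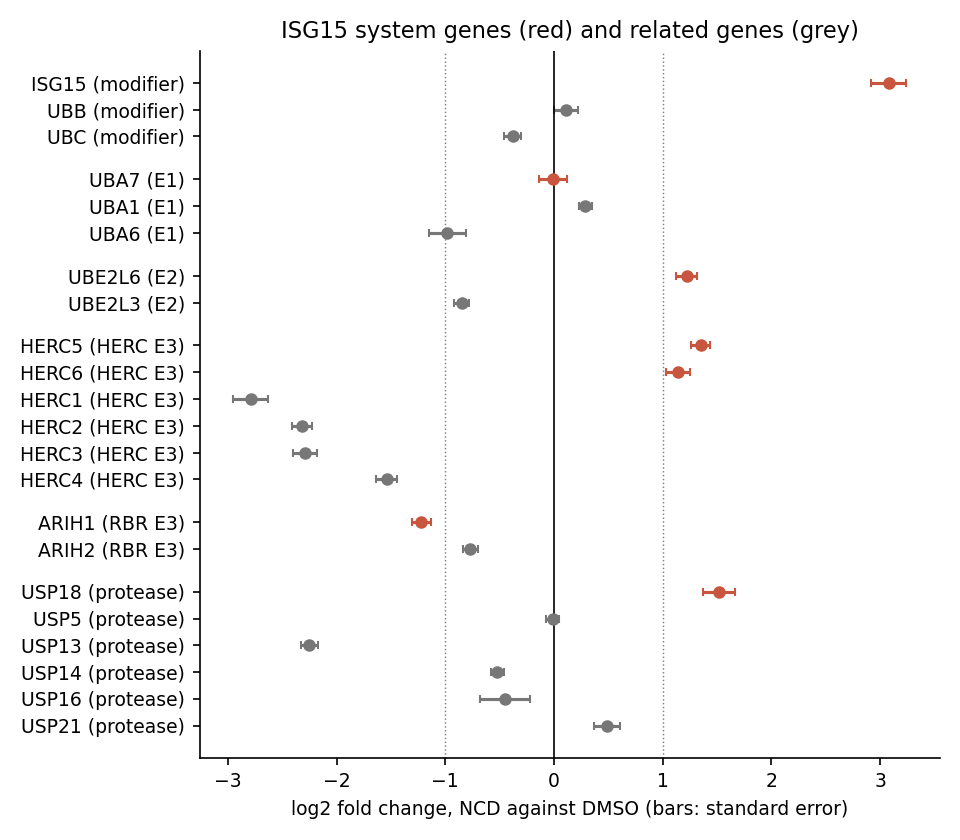
Log2 fold change of NCD against DMSO for the 7 members (red) and related genes of the same classes (grey), with bars for the standard error, a solid line at 0 and dotted lines at the fold threshold. HERC5 and HERC6 lie above 1 while HERC1 to HERC4 lie below -1.

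Of 47 other USP protease genes that could be tested, 18 were called, 6 higher and 12 lower (12.8% and 25.5%, beside 13.5% and 17.5% over all tested genes). Their median was -0.37, beside 1.52 for USP18. Scaling by library totals gave 7 higher and 9 lower. The 4 with the smallest p, all lower, were USP32 (-3.09, span 243.4 kb), USP13 (-2.25, 136.6 kb), USP12 (-1.63, 105.8 kb) and USP15 (-2.63, 157.1 kb). The largest fall was that of USP34 (-3.58, 283.3 kb). The part of gene span in these falls was not tested. Several USP enzymes other than USP18 react with ISG15 in activity assays. Of these, USP13 was called lower and USP2 was called higher (1.81, standard error 0.43, from 0.382 to 1.36 CPM). USP14 (-0.52), USP16 (-0.45), USP5 (-0.01) and USP21 (0.49) did not pass the threshold.

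Further genes tied to ISG15 were taken from a list of 15, of which 14 could be tested. By the edgeR test 4 were called, 3 higher and 1 lower (21.4% and 7.14%, beside 13.5% and 17.5% over all tested genes), and the median was 0.18. ITGB2, a chain of the integrin through which secreted ISG15 signals, rose from 5.19 ± 0.426 to 26.7 ± 1.67 CPM (SD, n = 3; log2 fold change 2.36, standard error 0.11, edgeR adjusted p = 1.43e-07), while its partner ITGAL was below the count filter. STAT2, the adaptor through which USP18 is held at the receptor, rose by 1.55 (standard error 0.10, edgeR adjusted p = 1.24e-06), and the receptor chain IFNAR2 was at 19.9 ± 1.33 and 20.5 ± 1.4 CPM (log2 fold change 0.04). TRIM25, another ligase reported to transfer ISG15, had a log2 fold change of 0.36, and SKP2, which directs the breakdown of USP18 protein, had -0.77.

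The pathway that induces the system was described by 13 genes from the interferon receptor to ISGF3. Of these, 6 were called higher and 2 lower (46.2% and 15.4%), with a median of 0.87. Over all tested genes 13.5% were called higher and 17.5% lower. Beside STAT2, the ISGF3 subunit IRF9 rose (1.42), as did IRF7 (2.49) and IRF1 (2.04), factors that bind ISRE sequences. The kinase gene JAK1 fell (-1.15, span 133.3 kb), and so did PIAS1 (-1.44, 144.4 kb), which encodes a SUMO ligase. The part of gene span in these 2 falls was not tested. Of 35 other interferon-stimulated effectors, 33 could be tested, and 21 were called higher (63.6%) and 0 lower, with a median of 1.46. The 4 with the smallest p were IFIT2 (4.07), IFIT1 (2.51), IFIT3 (2.84) and OASL (4.69), and 12 of the tested effectors, such as EIF2AK2 (0.05) and OAS1 (0.80), did not pass.
The ISRE letters lay in a promoter window of 22 of the 29 effectors with a window (75.9%), and in 2 of the 5 ISG15 system genes with one. Over the tested genes the share was 3.95%, and it was 5.51% among those called higher and 4.15% among those called lower.

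**Figure D5:**
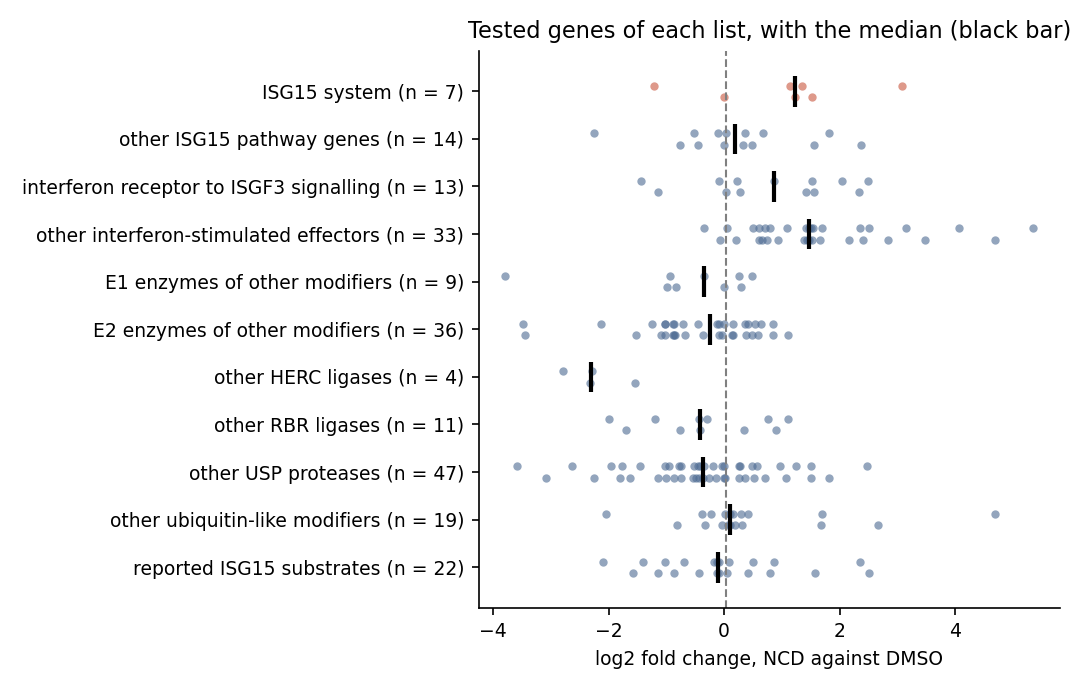
Log2 fold change of NCD against DMSO for each tested gene of each list (points, n in the label), with a black bar at the list's median and a dashed line at the median of all 15295 tested genes, 0.04. The medians of the ISG15 system (1.22) and of the other interferon-stimulated effectors (1.46) lie to the right, and that of the other HERC ligases (-2.30) to the left.

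Whether the genes next to the members moved with them was read from protein-coding genes annotated within 200 kb. Over all tested genes 31.0% were called, the share to set beside the counts of called neighbours below. Next to ISG15 on the opposite strand, the transcription factor gene HES4 lies 1 kb before the annotated start, 1001138, of the long alternative transcript. The RefSeq start, 1013497, lies further from it. HES4 rose from 0.799 ± 0.362 to 3.36 ± 0.347 CPM (SD, n = 3; log2 fold change 2.06, edgeR adjusted p = 0.000278). On the other side AGRN, which encodes agrin and lies 5.6 kb away on the same strand, fell by 1.27 (adjusted p = 5.54e-07, edgeR). Of 6 tested neighbours of ISG15, 1 was called higher, 1 lower and 4 not, with a median of 0.01. HERC6 and HERC5 lie 14 kb apart on the same strand. HERC3, on the far side of HERC5 at 86.3 kb, fell, and PPM1K, which encodes a mitochondrial phosphatase and lies 94 kb from HERC6, had a log2 fold change of 0.92 (standard error 0.09). Around USP18, PEX26 had 0.21 and MICAL3 fell (-2.03), and around ARIH1 the 3 tested neighbours HEXA, BBS4 and ADPGK ranged from -0.62 to -0.33, none of them called. Of 11 neighbours of UBA7, 3 were called: INKA1, 0.2 kb away on the opposite strand, rose by 1.94 from 0.533 ± 0.319 CPM (SD, n = 3), AMIGO3 rose by 1.15 with overlapping groups, and the RNA-binding protein gene RBM6 fell (-1.29). Of 13 neighbours of UBE2L6, 2 were called, RTN4RL2 (2.16) and ENSG00000254979 (2.96), both higher and both under 1 CPM with DMSO, and the median of the 13 was 0.43.

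Finally, the 11049 genes averaging 5 CPM or more were ranked by the distance of their centred log2 CPM profile over the 6 libraries from that of ISG15. The 5 nearest were PCK2 (distance 0.35), AVPI1 (0.38), INKA2 (0.41), CTH (0.44) and IL6 (0.47), with log2 fold changes of 2.88 to 3.34. PCK2 encodes the mitochondrial form of phosphoenolpyruvate carboxykinase and CTH the enzyme that makes cysteine from cystathionine. Of the other members, USP18 was nearest to ISG15 at rank 351, followed by HERC5 at 450, UBE2L6 at 525 and HERC6 at 776, while UBA7 was at 5521 and ARIH1 at 9458. The points are 6 libraries in 2 groups, so a small distance requires a like difference between the groups.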

How the data were processed

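RNA-seq of 3 DMSO and 3 NCD libraries was analysed. The authors aligned reads with HISAT2 and estimated expected counts per Ensembl gene with RSEM, and deposited them unnormalized. The submitters' processing notes name GRCh38 and hg38. The annotation release, tool versions and strandedness are not given in the sources used here. Groups came from sample titles. The descriptions of NCD replicates 2 and 3 carry other cell line numbers, but their cell line field gives MDA-MB-231. In each library 25 lines without a gene identifier were skipped, and they carried 0 counts.

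Symbols matched 62666 of 63241 identifiers, and 58228 were in GENCODE 29, which gave positions and lengths. Where a symbol had several identifiers, the one in GENCODE 29 was used. Expected counts were rounded and fitted over the whole table with edgeR 4.0.16 (filterByExpr, TMM, glmQLFit, glmQLFTest) in R 4.3.3, with Benjamini-Hochberg adjustment. The code was tested on simulated data. Standard errors are the absolute log2 fold change over the square root of F. Log2 CPM for profiles used a prior count of 2. Replicates differed beyond sampling noise (chi-square per degree of freedom 2.05 to 15.4). The highest value was for DMSO replicates 1 and 2. NCD replicate 3 stood at 14.4 and 12.9 from NCD replicates 1 and 2, which stood at 2.05 from each other. At 18223594 to 21629653 counts per library, intervals cover the spread between libraries, and genes with a few counts cannot be measured.

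The members and lists were chosen with earlier results of these data known. Genes named are the members, their nearest paralogs, up to 4 called genes with the smallest p per list, tested protein-coding neighbours within 200 kb, and the 5 genes closest to ISG15 in profile. Others were added to complete a group or chosen after their values were seen. Alternatives were DESeq2 1.42.0 (adjusted and unadjusted P), library totals, no fold threshold, a minimum of 10 counts in each library, no filter, unrounded counts, the replicate number as a block, USP18 and USP41 summed, and each library left out. Promoters came from RefSeq (GRCh38.p14). Some genes of the lists are not reported here by name, and the other experiments of the study were not analysed here.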

Additional observations from a re-analysis of the deposited data

How the results depend on the processing

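The call or lack of a call of each of the 7 genes was the same under every alternative run, and the count of called members was 6 in each, the 6 fits that left out one library included. The directions of the 6 called members held in all of them. UBA7, near 0 and never called, changed sign to 0.19 with library totals and ranged from -0.12 to 0.06 without each library. That scaling raises all log2 fold changes together, and it moved the median of the members to 1.42 (1.16 to 1.27 without each library). ISG15 ranged from 2.98 to 3.22 without each library and USP18 from 1.38 to 1.60. Of the other genes tied to ISG15, 10 counted without a fold threshold, by construction, and 4 in each fit without one library. The called effectors numbered 16 to 26 under the alternatives and 20 to 21 without each library. ATG7 was the 1 called E1 gene, and UBA6 joined it, making 2, with DESeq2, with the replicate block and without DMSO replicate 1, DMSO replicate 3 or NCD replicate 3. Libraries with the same replicate number did not deviate together: their correlations after removing group means were 0.216, -0.185 and 0.0226, so the numbers were not taken as pairs. Over all genes 10602 passed without the fold threshold. With the number as a block 4723 genes were called, against 4736, and the members' calls were the same. Per-length levels of ISG15, UBA7, UBE2L6, HERC5 and HERC6 rose by more than 1 SD with the principal transcript length, as shorter lengths must give. Depth limits genes below a few counts per library, such as USP41.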

Other observations

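Proteins reported to carry ISG15 were taken as a list of 23 genes, of which 22 could be tested. Of these, 3 were called higher and 5 lower by edgeR's quasi-likelihood test (13.6% and 22.7%, beside 13.5% and 17.5% over all tested genes). The median log2 fold change was -0.11. Those called higher included the interferon-stimulated genes IFIT1 (2.51) and MX1 (2.35). Among the genes called lower were the oxygen-regulated factor HIF1A (-1.57), the kinase JAK1 (-1.15) and the E2 enzyme UBE2E1 (-1.03). These are mRNA values, and conjugation of ISG15 to any of the proteins was not measured.

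Of 19 other ubiquitin-like modifier genes that could be tested, 4 were called higher and 1 lower (21.1% and 5.26%, beside 13.5% and 17.5% over all tested genes). Their median was 0.11. The higher ones were OASL, which carries tandem ubiquitin-like domains as ISG15 does (4.69), and the autophagy modifiers MAP1LC3A (2.67), GABARAPL1 (1.70) and MAP1LC3B (1.67). ATG5, a gene of 280.4 kb for the protein to which ATG12 is joined, was lower (-2.05). The polyubiquitin gene UBB had a log2 fold change of 0.11 and was not called. In the locus of the HERC genes, PYURF and PIGY, which are annotated over each other, carried identical counts in all 6 libraries, so they give 1 measurement.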
